A study of Homo sapiens with 18 samples.

Results

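The nuclear factor NRF2 and its antioxidant targets were followed through 9 genes, chosen by symbol: NFE2L2, KEAP1, NQO1, HMOX1, SLC7A11, GCLC, GCLM, TXNRD1 and SRXN1. All 9 are listed among the 15358 genes of the MCF10A table and the 15257 genes of the hTERT RPE-1 table, and all 9 passed the filter on low values in both lines. Polyadenylated RNA was measured in 18 libraries, 9 from MCF10A, a near-normal breast epithelial line, and 9 from hTERT RPE-1, a near-normal retinal pigment epithelial line that telomerase immortalises. Cells of each line received 30 nM of a non-targeting siRNA (siNT), a mimic of hsa-miR-28-5p (labelled miR-28) or a mimic of hsa-miR-708-5p (labelled miR-708), siblings of the MIR-28 family, and were collected after 72 h in 3 biological replicates a group. The comparisons ask how the mimics change the transcriptome relative to siNT, whether the siblings differ, and whether the lines differ. Both mimics of a line were set against the same 3 siNT libraries. The labels name no oxidant or activator of NRF2.

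NRF2, the product of NFE2L2, is a transcription factor that binds antioxidant response elements together with a small MAF protein. In resting cells KEAP1 holds it for ubiquitination by the CUL3 and RBX1 ligase, and oxidants or electrophiles that modify KEAP1 release it. Its targets detoxify quinones and haem, import cystine and make glutathione, keep thioredoxin and peroxiredoxins reduced, and supply NADPH. Several targets are also controlled by other factors, such as ATF4 at SLC7A11 and the repressor BACH1 at HMOX1, as textbook background.

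The sequences that the microRNA could pair with are shown first, since NFE2L2 and 2 of its glutathione targets carry them in their 3′ UTRs. The mature hsa-miR-708-5p (RefSeq, GRCh38.p14, chr11:79402077-79402099, minus strand) is shown with its seed, bases 2 to 8, in capitals. The study gives its sibling the same seed. Sites were searched in the 3′ UTR of 1 GENCODE 44 transcript a gene (hg38) as the 6mer GCTCCT, which extends to the 7mers AGCTCCT or GCTCCTA, and capitals mark the match. NFE2L2 has a match to both 7mers at once (an 8mer) at position 56 of its 477-nt 3′ UTR in exon 5 (chr2:177230712-177230741, minus strand), SLC7A11 has 1 AGCTCCT at position 3229 of 7859 nt in exon 12 (chr4:138168710-138168739, minus strand), and GCLM has 2 sites of the 6mer alone, at positions 1849 and 3161 of 3791 nt in exon 7 (chr1:93887124-93887153 and chr1:93885812-93885841, minus strand).
hsa-miR-708-5p: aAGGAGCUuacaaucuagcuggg
NFE2L2 site: attatactaaaAGCTCCTActgtgatgtga
SLC7A11 site: atttagactgtAGCTCCTcagccctgtgga
GCLM site 1: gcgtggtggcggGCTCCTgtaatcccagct
GCLM site 2: tcatttaattatGCTCCTttaacactgtct
The other 6 members have no 6mer in these 3′ UTRs. Of the genes tested with an annotated 3′ UTR, 35.7% in MCF10A and 35.9% in hTERT RPE-1 hold the 6mer and 18.7% in each line a 7mer, so 3 of 9 and 2 of 9 are near those shares. A match describes letters and does not show pairing.

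The promoters of 7 members were matched in the RefSeq table (GRCh38.p14, from 250 bases before to 50 after each of 10 starts) and searched on both strands for the core of the antioxidant response element, TGACNNNGC, which reads GCNNNGTCA on the other strand. The matches, in capitals with 10 bases on each side, are shown because this element is where NRF2 binds at its targets. They lie in GCLM (chr1:93909446-93909474, 34 bases before the start), TXNRD1 (chr12:104215670-104215698, chr12:104215761-104215789 and chr12:104286920-104286948, at 99, 8 and, from a second start, 102 bases) and KEAP1 (chr19:10502807-10502835 and chr19:10502784-10502812, at 54 and 31 bases from a second start within the gene), each printed along the gene's strand.
GCLM promoter: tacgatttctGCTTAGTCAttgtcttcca
TXNRD1 promoter 1: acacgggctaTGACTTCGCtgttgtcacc
TXNRD1 promoter 2: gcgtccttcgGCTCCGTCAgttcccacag
TXNRD1 promoter 3: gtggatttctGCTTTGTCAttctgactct
KEAP1 promoter 1: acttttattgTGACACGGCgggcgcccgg
KEAP1 promoter 2: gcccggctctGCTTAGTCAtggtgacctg
The promoters found for NFE2L2, GCLC, NQO1 and SRXN1 hold none of these letters in this window. Neither does the promoter at the outer start of KEAP1 (chr19:10503307-10503606). HMOX1 and SLC7A11 were not matched. Of all 35116 promoters in the table, 13.3% hold the core.

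Values are read estimates that the authors divided by a size factor of each library, so they are compared within a line. The depth, taken from the step between low values, was 19.4–31.7 M reads for MCF10A and 23.7–40.3 M for hTERT RPE-1, where 3 reads are worth values of 2.49–4.02 and 2.36–4.42, below every member. In MCF10A all 8 breast epithelial markers are listed, while hTERT RPE-1 lacks 5 of them (KRT5, KRT14, KRT17, CDH1 and EPCAM). Of 10 retinal pigment epithelial markers hTERT RPE-1 lists 8, MITF, OTX2 and PAX6 among them, and lacks RPE65 and TYR. MCF10A lists 6 of the 10, RPE65 among them, and lacks RLBP1, TYR, OTX2 and PAX6. With siNT, BEST1, LRAT and MITF had means of 795, 1212 and 184 in MCF10A. In hTERT RPE-1, which was scaled separately, these means were 166, 3.47 and 1908. LRAT and RLBP1 (2.42) were thus near the value of 3 reads there. These markers moved with the mimics too. The summed breast markers of MCF10A went from 168668–181402 with siNT to 110186–122047 with miR-28 and 86002–107159 with miR-708, with 0 of 8 higher and 3 and 4 lower. KRT14 was at 30.4% and 20.7% of siNT and TP63 at 48.1% and 41.9%. The summed retinal pigment epithelial markers of hTERT RPE-1 went from 4330–5120 to 3093–3257 and 3382–3621, with MITF at 57.3% and 67.7% and OTX2 at 67.9% and 69.6% of siNT. Of 7 tested, 2 were higher (BEST1 and RLBP1) and 4 lower with miR-28, and 1 was higher (RLBP1) and 2 lower with miR-708. PMEL, also in this sum, spread from 9.12 to 544 with siNT. Of 6 mesenchymal markers COL1A1 was at 236% and 187% of siNT in MCF10A and at 23.1% and 7.1% in hTERT RPE-1, where siNT itself spread from 22655 to 67366. COL1A1 was the only one called with miR-28 in either line. With miR-708, TWIST1 was also higher in both lines and CDH2 lower in hTERT RPE-1. These marker counts stand beside the shares of all genes given with the members. The part of the markers in the members' values was not tested. One library stood apart: ribosomal RNA genes took 15.12% of the values of miR-28 replicate 1 in hTERT RPE-1 (4.23–7.20% in the other 8), and its summed interferon-stimulated genes were 19313, against 160580 and 250208 in replicates 3 and 2. Results that rest on it are given with and without it.

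NFE2L2 and NQO1 fell with both siblings in both lines, while SLC7A11, GCLC and GCLM, the members that supply glutathione, fell in MCF10A in 5 of 6 tests and rose in hTERT RPE-1 in 4 of 6. The replicate numbers pair each mimic with siNT in MCF10A, and with the number as a block the count of falls there was 6 of 6. In hTERT RPE-1, where same-numbered libraries of mimic and siNT correlated less, the block also called SLC7A11 higher with miR-28 (0.89, adjusted p = 0.0142, limma, Benjamini-Hochberg adjusted). HMOX1 rose with miR-708 in both lines and KEAP1 passed no test. A gene was called at an adjusted p below 0.05 (limma on log2(value + 1), Benjamini-Hochberg adjustment over all genes tested in the line). With miR-28 in MCF10A, 0 of 9 members were called higher and 5 lower, where 10.7% and 12% of all 14726 genes tested were, and the 5 were also those with an unadjusted p below 0.05. With miR-708 the counts in MCF10A were 1 higher and 4 lower (2 and 5 with the replicate block, GCLM and TXNRD1 in addition), beside 15.5% and 17.3% of all genes. In hTERT RPE-1, miR-28 gave 2 higher and 3 lower (23.3% and 23.5% of 14527 genes), and miR-708 gave 5 higher and 3 lower (30.9% and 31.2%). The median log2 fold change of the 9 members was -0.59 and -0.42 in MCF10A and 0.088 and 0.49 for hTERT RPE-1, miR-28 first, and that of all genes was between -0.0047 and 0.0061 in the 4 comparisons.

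**Figure D1:**
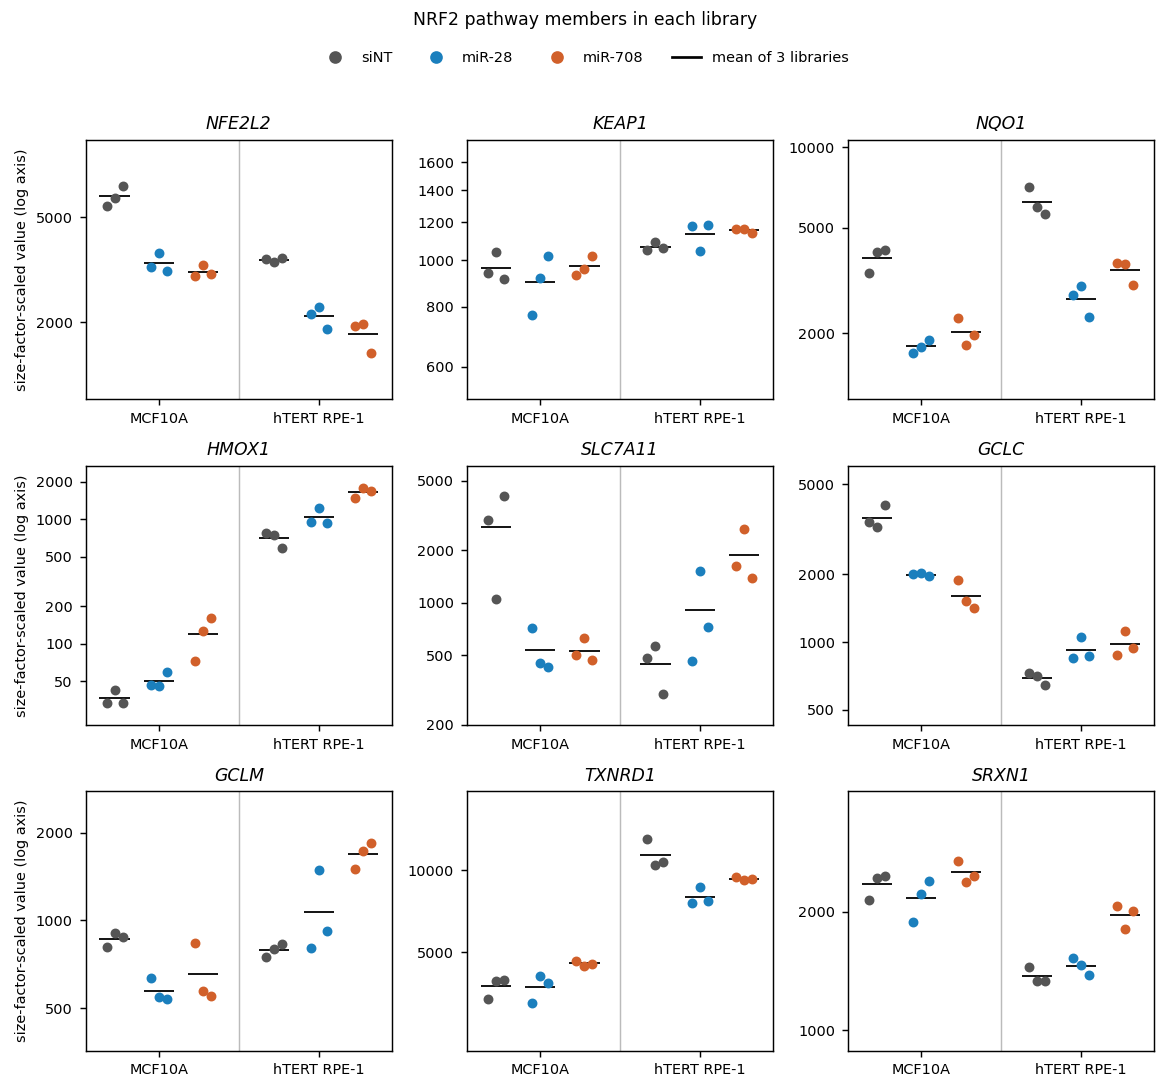
Value of each member in each of the 18 libraries, on a log axis, with the mean of 3 libraries as a line. The lines were scaled separately, so heights compare within a line. NFE2L2 and NQO1 sit below siNT with both mimics, and SLC7A11 falls from a mean of 2703 in MCF10A and rises from 449 in hTERT RPE-1.

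**Figure D2:**
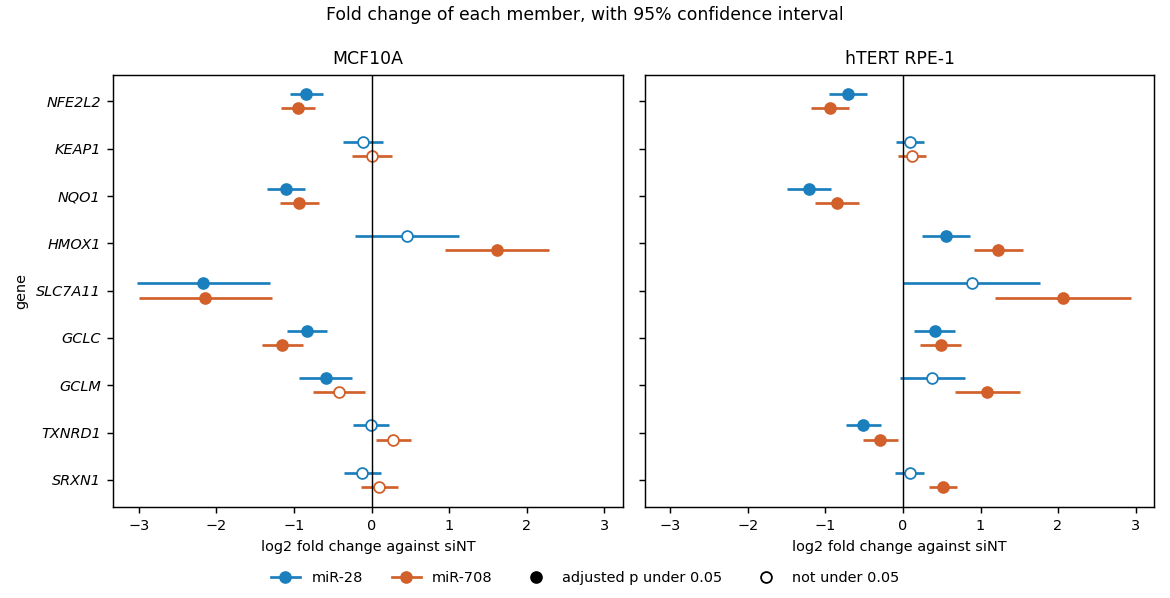
Log2 fold change against siNT (horizontal axis) of each member with its 95% confidence interval, filled where the adjusted p was below 0.05. SLC7A11 lies at -2.14 in MCF10A and 2.06 in hTERT RPE-1 with miR-708, and NQO1 lies between -1.21 and -0.85 in the 4 comparisons.

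If values are divided by the library total instead, the median of all genes moves to 0.12 with miR-28 and 0.14 with miR-708 in MCF10A, and to 0.091 and 0.32 in hTERT RPE-1. The share of higher genes among all called then goes from 47.1% to 66.1%, from 47.3% to 67.6%, from 49.9% to 59.4% and from 49.7% to 71.8% in the same order. Without ribosomal RNA genes in the total, the median with miR-28 in hTERT RPE-1 is 0.12 and the share 63.2%. With the upper quartile as scale, the share with miR-28 in MCF10A is 59.2%. Calls of members that changed with the scale are given with each member.

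The levels of the members relative to each other were compared per kb of transcript with siNT. In MCF10A, NFE2L2 was highest (2452 ± 210.0 per kb, mean ± SD, n = 3) and NQO1 next (1526 ± 163 per kb). TXNRD1, GCLC and SRXN1 followed at 969 ± 86.7, 940.0 ± 111 and 928 ± 70.5 per kb and overlapped each other, and KEAP1 stood at 376 ± 26 per kb. SLC7A11, at 280.3 ± 158 per kb, spread so widely that it overlapped KEAP1 above and GCLM below (177 ± 9.99 per kb), while HMOX1 was lowest at 23.6 ± 3.42 per kb. In hTERT RPE-1 the order began with TXNRD1 (2957 ± 354.4 per kb) and NQO1 (2468 ± 314 per kb), which overlapped, then NFE2L2 (1409 ± 27.8 per kb) and SRXN1 (542 ± 26.4 per kb). HMOX1 (455 ± 65.9 per kb) overlapped KEAP1 (416 ± 8.77 per kb), and GCLC, GCLM and SLC7A11 were lowest at 183 ± 11.7, 163 ± 8.09 and 46.6 ± 14.1 per kb.

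NFE2L2 (hg38 chr2:177230303-177265131, minus strand) fell in the 4 comparisons. In these bulk libraries, a lower level in every cell and a loss from some of the cells cannot be told apart. In MCF10A, NFE2L2 had values of 5529, 5919 and 6547 with siNT, 3241, 3670.4 and 3139 with miR-28 and 2984, 3306 and 3043 with miR-708 (replicates 7, 8 and 9). All 6 libraries with a mimic were below all 3 with siNT, and those of the siblings overlapped. The mean was 55.8% of siNT with miR-28 and 51.9% with miR-708, log2 fold changes of -0.84 (standard error 0.10, Benjamini-Hochberg adjusted p = 0.000406, limma) and -0.94 (adjusted p = 8.32e-05, limma, Benjamini-Hochberg adjusted). In hTERT RPE-1, NFE2L2 had values of 3466, 3371 and 3503 with siNT, 2152, 2289 and 1881 with miR-28 and 1938, 1962 and 1527 with miR-708 (replicates 1, 2 and 3). Again no library with a mimic reached the siNT range, and the lowest value was miR-708 replicate 3. Here the mean was 61.1% and 52.5% of siNT, log2 fold changes of -0.71 (standard error 0.11, Benjamini-Hochberg adjusted p = 0.000502, limma) and -0.94 (adjusted p = 3.82e-05, limma, Benjamini-Hochberg adjusted), the latter -0.62 under library size scaling and still called. NFE2L2 carries the 8mer shown above, and the part of that site was not tested.

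KEAP1 (chr19:10486125-10503356, minus strand), the sensor that marks NRF2 for degradation, passed the test in none of the 4 comparisons. KEAP1 ranged from 770 to 1040 over the 9 libraries of MCF10A and from 1044 to 1186 over those of hTERT RPE-1. The groups overlapped in MCF10A. In hTERT RPE-1 the 3 libraries with miR-708 (1140.2 to 1160.5) lay just above siNT (1048 to 1091). Its log2 fold changes were -0.10 (95% interval -0.36 to 0.15) and 0.0094 (-0.25 to 0.27) in MCF10A and 0.088 (-0.091 to 0.27) and 0.11 (-0.066 to 0.29) in hTERT RPE-1, miR-28 first. Under library size scaling the first became 0.0068, the other direction, and the last became 0.43 and was called (Benjamini-Hochberg adjusted p = 0.00111, limma), beside a median of all genes of 0.32.

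NQO1 (chr16:69709401-69726560, minus strand), the quinone reductase often read as a gauge of NRF2 activity, fell with NFE2L2 in each comparison. In MCF10A, NQO1 had values of 3373, 4052 and 4116 with siNT, 1692, 1782 and 1883 with miR-28 and 2287, 1809 and 1968 with miR-708. Each of the 6 mimic libraries lay below the 3 of siNT, by a margin wider than the spread within any group. NQO1 fell by 1.10 on the log2 scale with miR-28 (standard error 0.11, Benjamini-Hochberg adjusted p = 0.000254, limma) and fell by 0.93 with miR-708 (adjusted p = 0.000187, limma, Benjamini-Hochberg adjusted). In hTERT RPE-1, NQO1 had values of 7111, 5956 and 5597 with siNT, 2786, 2999.8 and 2295 with miR-28 and 3669, 3637 and 3042 with miR-708. The siNT libraries were the highest, those with miR-28 the lowest, and the siblings did not overlap. The fold changes were -1.21 (standard error 0.13, Benjamini-Hochberg adjusted p = 4.27e-05, limma) and -0.85 (adjusted p = 0.000203, limma, Benjamini-Hochberg adjusted) on the log2 scale, and the latter was -0.53 under library size scaling and still called.

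HMOX1 (chr22:35381096-35394207, plus strand), haem oxygenase 1, opens haem to biliverdin, iron and carbon monoxide, and it went the other way. In MCF10A, where it is scarce, HMOX1 had values of 33.5, 42.9 and 33.8 with siNT, 46.9, 45.6 and 60.1 with miR-28 and 73.3, 126 and 161 with miR-708. The 3 groups did not overlap, with siNT lowest and miR-708 highest and most spread. With miR-708 the mean was 3.28 times that of siNT (log2 fold change 1.62, standard error 0.31, Benjamini-Hochberg adjusted p = 0.00233, limma), and with miR-28 it was 1.39 times and did not pass the test (log2 fold change 0.46, 95% interval -0.21 to 1.13, adjusted p = 0.301, limma, Benjamini-Hochberg adjusted). In hTERT RPE-1, HMOX1 had values of 779.6, 752 and 589.9 with siNT, 957, 1231 and 928 with miR-28 and 1485, 1796 and 1678 with miR-708. The order was the same and the groups again did not overlap. HMOX1 rose with miR-28 (log2 fold change 0.55, standard error 0.14, Benjamini-Hochberg adjusted p = 0.00858, limma) and with miR-708 (log2 fold change 1.23, adjusted p = 3.11e-05, limma, Benjamini-Hochberg adjusted).

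SLC7A11 (chr4:138164097-138242349, minus strand), the cystine importer of system xc-, had the largest fold change among the 9 members in both MCF10A comparisons and with miR-708 in hTERT RPE-1, where it went in the opposite direction. In MCF10A, SLC7A11 had values of 2989, 1054 and 4068 with siNT, 719, 454 and 429 with miR-28 and 503, 629 and 468 with miR-708. All libraries with a mimic were below all siNT libraries, but siNT itself spread from 1054 to 4068, with replicate 8 far below the other siNT libraries. SLC7A11 fell by 2.17 on the log2 scale with miR-28 (standard error 0.39, Benjamini-Hochberg adjusted p = 0.00348, limma) and fell by 2.14 with miR-708 (adjusted p = 0.00197, limma, Benjamini-Hochberg adjusted), to a mean of 19.8% and 19.7% of siNT. Leaving out each library in turn gave -2.74 to -1.77 and -2.72 to -1.74, all called. In hTERT RPE-1, SLC7A11 had values of 483, 565 and 299 with siNT, 462, 1531 and 729 with miR-28 and 1617, 2648 and 1395 with miR-708. The libraries with miR-708 were all above siNT, while those with miR-28 overlapped both other groups, replicate 1 lying within the siNT range. With miR-708 the mean was 4.2 times that of siNT (log2 fold change 2.06, standard error 0.40, Benjamini-Hochberg adjusted p = 0.00109, limma). With miR-28 the log2 fold change was 0.89 and did not pass the test (95% interval 0.004 to 1.77, adjusted p = 0.0913, limma, Benjamini-Hochberg adjusted), and without replicate 1 of that mimic, the library rich in ribosomal RNA, it was 1.28 and called (Benjamini-Hochberg adjusted p = 0.0112, limma). Without replicate 2, the highest of that mimic, it was 0.42 (Benjamini-Hochberg adjusted p = 0.309, limma). The antisense gene SLC7A11-AS1 overlaps this gene with a mean value of 12.9 in one line and 12.6 in the other, and without stated strand use its reads cannot be told apart from those of SLC7A11.

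GCLC (chr6:53497341-53545101, minus strand) encodes the catalytic subunit of glutamate-cysteine ligase, the rate-limiting step of glutathione synthesis, and followed the same split. In MCF10A, GCLC had values of 3416, 3228 and 4029.7 with siNT, 2000.4, 2021 and 1954 with miR-28 and 1882, 1528 and 1414 with miR-708. The 3 groups did not overlap, siNT being highest and miR-708 lowest. GCLC fell by 0.83 on the log2 scale with miR-28 (standard error 0.12, Benjamini-Hochberg adjusted p = 0.00112, limma) and fell by 1.15 with miR-708 (adjusted p = 8.22e-05, limma, Benjamini-Hochberg adjusted). In hTERT RPE-1, GCLC had values of 727, 709 and 643 with siNT, 849, 1055 and 864 with miR-28 and 879, 1114 and 938 with miR-708. All libraries with a mimic were above siNT and the siblings overlapped. Its log2 fold changes were 0.41 (standard error 0.12, Benjamini-Hochberg adjusted p = 0.0176, limma) and 0.49 (adjusted p = 0.00467, limma, Benjamini-Hochberg adjusted), the latter 0.81 under library size scaling. The call with miR-28 was lost without its replicate 2 (0.31, adjusted p = 0.0582) or without siNT replicate 3 (0.35, adjusted p = 0.0546, limma, Benjamini-Hochberg adjusted).

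GCLM (chr1:93885200-93909598, minus strand), the modifier subunit that raises the affinity of the ligase for its substrate, moved less evenly. In MCF10A, GCLM had values of 808, 903 and 875 with siNT, 634, 548 and 536 with miR-28 and 836, 575 and 552 with miR-708. Every library with miR-28 was below siNT, and miR-708 replicate 7 lay within the siNT range while replicates 8 and 9 were below it. GCLM fell by 0.59 on the log2 scale with miR-28 (standard error 0.15, Benjamini-Hochberg adjusted p = 0.0193, limma), a call lost without replicate 8 or 9 of that mimic (adjusted p = 0.0667 and 0.0635) or of siNT (0.0646 and 0.0600, limma, Benjamini-Hochberg adjusted), where it fell by 0.55 to 0.58. With miR-708 the log2 fold change was -0.42 (95% interval -0.76 to -0.083) and missed the threshold (adjusted p = 0.0559), which it passed with the replicate number as a block (adjusted p = 0.0279) and without replicate 7 (-0.61, adjusted p = 0.0029, limma, Benjamini-Hochberg adjusted). In hTERT RPE-1, GCLM had values of 751, 801 and 829 with siNT, 804, 1487 and 920.3 with miR-28 and 1502, 1727 and 1846 with miR-708. The miR-708 libraries were above all others, and miR-28 overlapped siNT through its replicate 1. GCLM rose with miR-708 (log2 fold change 1.09, standard error 0.19, Benjamini-Hochberg adjusted p = 0.000557, limma). The log2 fold change with miR-28 was 0.38 (95% interval -0.039 to 0.80, adjusted p = 0.123, limma, Benjamini-Hochberg adjusted), without replicate 1 it was 0.56 and called (Benjamini-Hochberg adjusted p = 0.0212, limma), and without replicate 2, the highest, it was 0.12 (adjusted p = 0.434, limma, Benjamini-Hochberg adjusted). It was also called under library size scaling without ribosomal RNA genes (0.50, Benjamini-Hochberg adjusted p = 0.0408, limma).

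TXNRD1 (chr12:104215779-104350307, plus strand), the cytosolic reductase that recycles thioredoxin with NADPH, fell in hTERT RPE-1 and was not called in MCF10A. In MCF10A, TXNRD1 had values of 3354, 3928 and 3939 with siNT, 3253, 4078 and 3849.8 with miR-28 and 4651, 4450.4 and 4519 with miR-708. Libraries with miR-28 overlapped siNT, and those with miR-708 were above both. The log2 fold change with miR-28 was -0.0077 (95% interval -0.24 to 0.22), and 0.10 under library size scaling, the other direction. With miR-708 it was 0.28 (95% interval 0.051 to 0.52, adjusted p = 0.0594), called with the replicate number as a block (adjusted p = 0.0340) and under library size scaling (0.43, adjusted p = 0.0106) or upper quartile scaling (0.33, adjusted p = 0.0338, limma, Benjamini-Hochberg adjusted). In hTERT RPE-1, TXNRD1 had values of 12985, 10493 and 10761 with siNT, 7581, 8701 and 7691 with miR-28 and 9426, 9173 and 9270.0 with miR-708. All libraries with a mimic were below all siNT libraries, miR-28 being the lowest. TXNRD1 fell by 0.51 on the log2 scale with miR-28 (standard error 0.10, Benjamini-Hochberg adjusted p = 0.00208, limma). With miR-708 it fell by 0.29 (adjusted p = 0.027, limma, Benjamini-Hochberg adjusted) as deposited, but the difference was 0.029 under library size scaling and 0.0076 when ribosomal RNA genes were left out of the total, the other direction and not called. This call was also lost without siNT replicate 1 (-0.19, adjusted p = 0.123) or without replicate 1, 2 or 3 of miR-708 (Benjamini-Hochberg adjusted p = 0.0556 to 0.0668, limma). EID3 lies within TXNRD1 on the same strand with mean values of 26.9 and 41.4 in MCF10A and hTERT RPE-1.

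SRXN1 (chr20:646624-653200, minus strand), sulfiredoxin, repairs overoxidised peroxiredoxins. In MCF10A, SRXN1 had values of 2142, 2434 and 2464 with siNT, 1886, 2215 and 2396 with miR-28 and 2694, 2383 and 2471 with miR-708. The 3 groups overlapped, and the log2 fold changes were -0.12 (95% interval -0.36 to 0.12) with miR-28 and 0.10 (-0.14 to 0.34) with miR-708. In hTERT RPE-1, SRXN1 had values of 1448, 1332 and 1332 with siNT, 1526, 1462 and 1383 with miR-28 and 2063, 1812 and 2013 with miR-708. The libraries with miR-708 were above all others, and those with miR-28 overlapped siNT. SRXN1 rose with miR-708 (log2 fold change 0.52, standard error 0.08, Benjamini-Hochberg adjusted p = 0.000355, limma), or 0.84 under library size scaling, and the value with miR-28 was 0.088 (95% interval -0.098 to 0.27).

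Tested directly, the siblings differed in 0 of 9 members in MCF10A, where 1.28% of all genes were called higher and 0.265% lower with miR-708 than with miR-28 (limma). Of the members, 3 had an unadjusted p below 0.05, HMOX1 (log2 difference 1.16, 95% interval 0.49 to 1.83), GCLC (-0.32, -0.58 to -0.058) and TXNRD1 (0.29, 0.059 to 0.52). The interval for SLC7A11 was -0.83 to 0.88 and that for NFE2L2 -0.32 to 0.11. HMOX1 was called with the replicate number as a block (1.16, adjusted p = 0.0371) and without miR-708 replicate 7 (1.48, adjusted p = 0.0211, limma, Benjamini-Hochberg adjusted). In hTERT RPE-1, HMOX1, GCLM and SRXN1 were higher with miR-708, 3 of 9 members where 9.88% of all genes were higher, and 0 members were lower, where 11.4% were; of those with an unadjusted p below 0.05, which were 5, all were higher. The differences were 0.68 for HMOX1 (standard error 0.14, Benjamini-Hochberg adjusted p = 0.00822, limma), 0.71 for GCLM (adjusted p = 0.0244) and 0.43 for SRXN1 (adjusted p = 0.00644, limma, Benjamini-Hochberg adjusted), the last 0.66 under library size scaling. The replicate numbers pair these libraries, and with the number as a block 5 members were called, NQO1 (0.36, adjusted p = 0.0199, and 0.0687 without the block) and SLC7A11 (1.18, adjusted p = 0.00981, and 0.0588 without it, limma, Benjamini-Hochberg adjusted) in addition. The GCLM call was lost without a trend in the moderation (adjusted p = 0.0534) and with the siblings alone in the fit (adjusted p = 0.0571, limma, Benjamini-Hochberg adjusted). It was also lost without miR-28 replicate 1 or 3 or miR-708 replicate 2 or 3 (0.53 to 0.69, adjusted p = 0.0651 to 0.0926, limma, Benjamini-Hochberg adjusted), and without miR-28 replicate 2 the count was 5. Scaling by library size raised the count to 7, with NQO1 (0.59), SLC7A11 (1.41), KEAP1 (0.26) and TXNRD1 (0.45) in addition, and moved the share of higher genes among all called from 46.5% to 84.8%.

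The response itself was then compared between the lines, as the log2 fold change in hTERT RPE-1 minus that in MCF10A over 13339 genes tested in both. With miR-28, 3 of 9 members (SLC7A11, GCLC and GCLM) had a higher response in hTERT RPE-1 and 1 (TXNRD1) a lower one, where 12.1% and 11.3% of all genes did. With miR-708, 4 members (those 3 and SRXN1) were higher and TXNRD1 lower, where 20.2% and 19.6% of all genes were; the share of higher among all called was 50.8%, and 68.4% under library size scaling. SLC7A11 differed by 3.06 (standard error 0.56, adjusted p = 0.000617) with miR-28 and by 4.20 (adjusted p = 6.25e-06) with miR-708 (difference of the limma fold changes, Benjamini-Hochberg adjustment). GCLC differed by 1.24 and 1.64 and GCLM by 0.97 and 1.51, so the members that supply glutathione were set apart by line under each sibling. This was not particular to them: of 11 other genes of glutathione use, 5 had a higher response in hTERT RPE-1 and 0 a lower one with miR-28. With miR-708, 7 were higher and 1 lower. TXNRD1 differed by -0.50 and -0.57. The miR-28 difference of TXNRD1 was lost without hTERT RPE-1 siNT replicate 1, MCF10A miR-28 replicate 8 or MCF10A siNT replicate 7 (-0.43 to -0.41, adjusted p = 0.0527 to 0.0540), and that of miR-708 under library size scaling (-0.40, adjusted p = 0.0503, limma, Benjamini-Hochberg adjusted). SRXN1 differed with miR-708 by 0.41 (adjusted p = 0.0201), lost without MCF10A siNT replicate 8 or 9 or miR-708 replicate 8 (0.38 to 0.39, adjusted p = 0.0532 to 0.0621, limma, Benjamini-Hochberg adjusted). For NFE2L2 the intervals of the difference were -0.18 to 0.43 and -0.30 to 0.32, for NQO1 -0.46 to 0.25 and -0.27 to 0.43, for KEAP1 -0.10 to 0.49 and -0.19 to 0.40, and for HMOX1 -0.62 to 0.81 and -1.11 to 0.32.

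**Figure D3:**
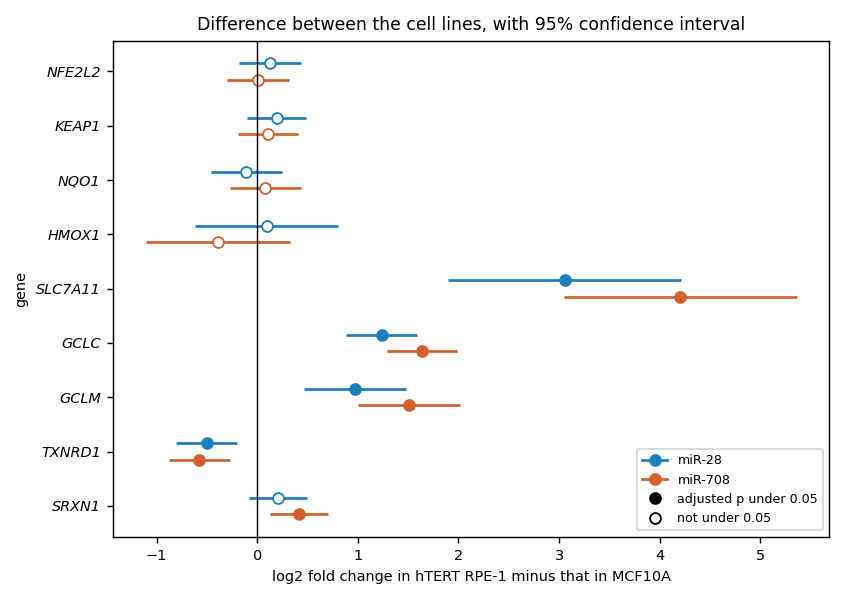
Log2 fold change in hTERT RPE-1 minus that in MCF10A (horizontal axis) for each member and mimic, with 95% confidence intervals, filled where the adjusted p was below 0.05. SLC7A11, at 3.06 and 4.20, lies farthest from 0, GCLC and GCLM lie to the right, TXNRD1 to the left, and NFE2L2, KEAP1, NQO1 and HMOX1 span 0.

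The profile of SLC7A11 was compared with those of other genes as the root mean square difference of log2 values centred by line over the 18 libraries. TRIB3, a target of ATF4, was nearest at 0.53, followed by SLC6A9, a glycine transporter, at 0.55 and SLC3A2, the heavy chain that pairs with SLC7A11, at 0.63, where the median of 10233 genes was 1.10. SLC3A2 fell in MCF10A (-0.88 and -0.57 on the log2 scale) and rose in hTERT RPE-1 (0.69 and 1.45), miR-28 first, each called. The genes nearest to HMOX1 were ZNF432, ZNF350 and HRH1, each at 0.27 (median of all 0.69). The points share libraries and scaling, so no p is given.

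Genes of the integrated stress response (ATF4, ATF3, DDIT3, TRIB3, ASNS, SESN2, CHAC1 and PSAT1) also moved by line. Of these 8, 5 were lower with miR-28 in MCF10A, 5 lower and 2 higher (ATF3 and DDIT3) with miR-708, 8 higher with miR-28 in hTERT RPE-1 and 7 higher with miR-708 (limma). The shares of all genes, higher and lower, were 10.7% and 12%, 15.5% and 17.3%, 23.3% and 23.5%, and 30.9% and 31.2% in the same order. Their summed value in MCF10A was 16371 to 29795 with siNT, replicate 8 being the lowest as for SLC7A11, 10089 to 11782 with miR-28 and 11816 to 12217 with miR-708. In hTERT RPE-1 it was 8359 to 10713 with siNT, 13772 to 17645 with miR-28 and 15253 to 16332 with miR-708. Interferon-stimulated genes also moved with the mimics. Of 9 such genes, 5 were higher and 1 lower with miR-28 and 9 higher with miR-708 in MCF10A, and all 8 tested in hTERT RPE-1 were higher with each, beside the same shares of all genes. Their summed value in MCF10A was 1720 to 2118 with siNT, 2149 to 3455 with miR-28 and 54350 to 113859 with miR-708. The part of either response in the members' values was not tested.

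Of 8 partners that act on NRF2 itself (CUL3, RBX1, SQSTM1, BTRC, BACH1, MAFF, MAFG and MAFK), 1 was lower with miR-28 in MCF10A, 1 higher and 1 lower with miR-708, 3 higher and 1 lower with miR-28 in hTERT RPE-1 and 3 of each with miR-708. The shares of all genes, higher and lower, were 10.7% and 12%, 15.5% and 17.3%, 23.3% and 23.5%, and 30.9% and 31.2% in the same order. RBX1, the RING subunit of the ligase that ubiquitinates NRF2, fell in each (-0.61 and -0.46 in MCF10A, -0.54 and -0.49 in hTERT RPE-1, log2 scale, miR-28 first). MAFG, a small MAF partner of NRF2 on DNA, rose with miR-708 in both lines (0.45 and 0.87) and with miR-28 in hTERT RPE-1 (0.56). In hTERT RPE-1 both mimics raised SQSTM1, which binds KEAP1 (0.42 and 0.50), and BACH1, a repressor of antioxidant elements (0.60 and 0.38), and miR-708 lowered BTRC (-0.30) and MAFK (-0.57).

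Further NRF2 targets were more often lower than higher in each comparison. These 29 genes were listed from general knowledge, with earlier results of these data known. With miR-28, 2 were higher and 14 lower of 29 tested in MCF10A, and 3 and 13 of 23 tested in hTERT RPE-1. With miR-708, the counts were 4 and 15 of 29 in MCF10A, and 4 and 14 of 23 in hTERT RPE-1. The shares of all genes, higher and lower, were 10.7% and 12%, 23.3% and 23.5%, 15.5% and 17.3%, and 30.9% and 31.2% in the order of these counts. The median log2 fold changes were -0.45, -0.41, -0.37 and -0.40, for miR-28 and miR-708 in MCF10A and then in hTERT RPE-1, beside medians near 0 of all genes. Under library size scaling the medians of all genes are 0.12, 0.14, 0.091 and 0.32 in that order. The counts and medians of this list are not given for that scaling. Among genes tested in both lines, the largest mean falls among those reported here were those of PGD and TKT, enzymes of the pentose phosphate pathway. PGD fell (log2 fold changes of -1.03 and -1.33 for MCF10A, -1.49 and -1.40 for hTERT RPE-1). TKT, a transketolase, fell (log2 fold changes of -0.86 and -1.11 for MCF10A, -1.44 and -1.68 for hTERT RPE-1). ABCC3, an exporter of organic anions, fell in hTERT RPE-1 (-1.48 and -3.19) and had log2 fold changes of 0.24 and -0.48 in MCF10A, neither called. Against this direction, ABCC2, an exporter of glutathione conjugates, rose in each (0.67 and 0.63 in MCF10A, 2.27 and 3.41 in hTERT RPE-1). OSGIN1 rose with miR-708 in both lines (1.26 and 2.23) and with miR-28 in hTERT RPE-1 (1.27), and BLVRB, which reduces biliverdin, rose with miR-708 (0.53 for MCF10A, 0.68 for hTERT RPE-1). The AKR1C genes on this list are near-identical copies whose reads the authors' estimates may divide unevenly.

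**Figure D4:**
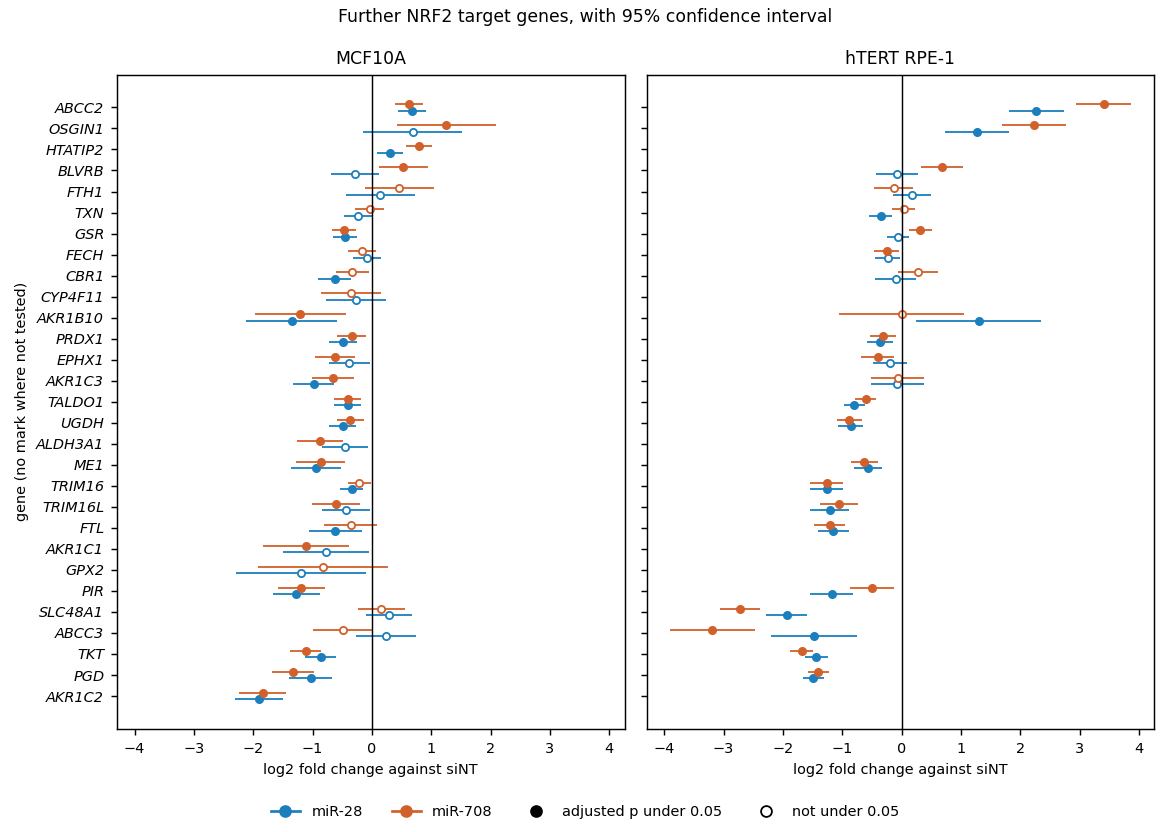
Log2 fold change against siNT (horizontal axis) of 29 further NRF2 targets with 95% confidence intervals, ordered by their mean over the comparisons, filled where the adjusted p was below 0.05. Most marks lie left of 0 in both lines, with PGD and TKT near the bottom and ABCC2 at the top, where miR-708 in hTERT RPE-1 reaches 3.41.

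Of 11 other genes of glutathione use, 1 was higher and 4 lower with each sibling in MCF10A, where 10.7% and 12% and then 15.5% and 17.3% of all genes were. In hTERT RPE-1 4 were higher and 2 lower with miR-28 and 5 higher and 2 lower with miR-708, where 23.3% and 23.5% and then 30.9% and 31.2% of all genes were. GGT1, among the higher genes with each sibling there, had a mean of 3.19 with siNT, near the value of 3 reads. Its means were 14.0 with miR-28 and 16.5 with miR-708. GPX1, a glutathione peroxidase, rose in each comparison (0.46 and 0.65 in MCF10A, 0.95 and 1.09 in hTERT RPE-1). CHAC1, which degrades glutathione and is also on the list of the integrated stress response, fell in MCF10A (-3.48 and -3.42) and had log2 fold changes of 0.80 (called) and -0.12 (not called) in hTERT RPE-1. In MCF10A its values were 15.0 to 163 with siNT, a wide spread. With miR-28 and miR-708 they were 3.94 to 8.04 and 3.83 to 8.33, near the value of 3 reads. GLRX, a glutaredoxin, fell in MCF10A (-1.37 and -0.94) and with miR-28 in hTERT RPE-1 (-0.73).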

How the data were processed

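RNAseq was analysed for 18 libraries, 3 for each of siNT, miR-28 and miR-708 in each cell line. After adapter trimming, the authors aligned reads to hg38 (HISAT2 2.1.0), estimated RefSeq transcripts by E/M in Partek Flow and ran DESeq2. The signal the authors deposited per gene and library is an estimated count scaled to its library, which the values show to be by the median of ratios. Between 82.2% and 87.8% of low values were whole multiples of the library's step (tolerance 0.03 steps), so whole reads were not recovered and no count model was used. Reads carry no molecular identifiers, and the value of 3 reads covers counting error only. The authors also deposited ratios and p-values of their own comparisons, which were not used.

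Values were analysed as log2(value + 1), which understates changes of low genes, for genes of at least 10 in at least 3 libraries, with limma 3.58.1 in R 4.3.3 (3 group means over the 9 libraries of a line, trended moderation, Benjamini-Hochberg adjustment over all genes). The lines were scaled separately, so line differences combine the fold changes of both with their errors, and degrees of freedom after Welch–Satterthwaite. The fit was tested on simulated data. Figures used Python 3.11.15 and matplotlib 3.10.9.

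The members and gene lists were chosen with earlier results of these data known. One gene of the list of further NRF2 targets is not reported here. The text names all members, the called partners of NRF2, from other lists up to 3 of the highest and 3 of the lowest called by mean fold change, and the 3 genes most alike to each of the 2 members of widest range. Libraries of the same replicate number were compared by the correlation across genes of their deviations from group means. These were 0.11 to 0.30 for each mimic and siNT in MCF10A and 0.13 to 0.28 between the siblings in hTERT RPE-1, all above 0.1, so the numbers pair those libraries. For each mimic and siNT in hTERT RPE-1 they were 0.021 to 0.15, though every mimic library correlated best with the siNT library of its own number. Between the siblings in MCF10A they were 0.025 to 0.18, and miR-708 replicate 8 did not match its own number best. In these the correlations alone do not settle pairing. All groups of a line carry the same numbers, so a pairing seen between some groups of a line bears on its other groups. The alternatives tried were another pseudocount, filter, scaling, moderation, the groups in the fit, the replicate block and leaving out each library.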

Additional observations from a re-analysis of the deposited data

Results flagged for a closer look

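The response of 5 members differed between the cell lines by a test of the difference itself (log2 fold change in hTERT RPE-1 minus that in MCF10A, difference of the limma fold changes with Benjamini-Hochberg adjustment over 13339 genes). Of all genes, 12.1% were higher and 11.3% lower in hTERT RPE-1 with miR-28, and 20.2% and 19.6% with miR-708. With miR-28 the difference was 3.06 for SLC7A11, 1.24 for GCLC, 0.97 for GCLM and -0.50 for TXNRD1. With miR-708 it was 4.20 for SLC7A11, 1.64 for GCLC, 1.51 for GCLM, 0.41 for SRXN1 and -0.57 for TXNRD1. The calls of TXNRD1 with miR-28 and SRXN1 were lost on leaving out single libraries (adjusted p = 0.0527 to 0.0540 and 0.0532 to 0.0621), and that of TXNRD1 with miR-708 under library size scaling (adjusted p = 0.0503, limma, Benjamini-Hochberg adjusted). For SLC7A11 and GCLC, every library with miR-708 was below siNT in MCF10A and above it in hTERT RPE-1. The share of all genes that separate in this way was not computed, so nothing is read from it. The lines also differ in tissue, table and replicate set, which cannot be told apart here.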

How the results depend on the processing

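Every value of a member lies above that of 3 reads, and precision is limited by 3 replicates a group and, for HMOX1 in MCF10A, also by depth, since it has few reads with siNT. Over 792 values from alternatives that keep all libraries, 759 kept their direction and side of the threshold, 3 lost it, 21 gained it and 9 reversed, and leaving out 1 library gave 491, 20, 6 and 23 of 540. Library size scaling gave 7 members called between the siblings in hTERT RPE-1, scaling without ribosomal RNA genes 6 and the replicate block 5, instead of 3. The cause was not tested. Leaving out each library gave 2 to 5 there and 0 to 1 in MCF10A.

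Reversed under library size scaling, with and without ribosomal RNA genes, were KEAP1 (0.0068 and 0.0067) and TXNRD1 (0.10 and 0.10) with miR-28 in MCF10A and TXNRD1 with miR-708 in hTERT RPE-1 (0.029 and 0.0076). With the ribosomal RNA genes counted, NFE2L2 between the siblings in hTERT RPE-1 reversed too (0.0087). Under upper quartile scaling TXNRD1 with miR-28 in MCF10A (0.064) and the line difference of NFE2L2 with miR-708 (-0.018) reversed.

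Leaving out 1 library reversed 10 values, with ranges on both sides of 0: in MCF10A KEAP1 (-0.20 to 0.0055) and TXNRD1 (-0.084 to 0.087) with miR-28, KEAP1 with miR-708 (-0.029 to 0.065), and GCLM (-0.020 to 0.28) and SLC7A11 (-0.11 to 0.26) between the siblings; in hTERT RPE-1 KEAP1 (-0.034 to 0.058) and GCLC (-0.016 to 0.18) between the siblings; and the line differences of NQO1 (-0.19 to 0.0043) and HMOX1 (-0.034 to 0.22) with miR-28 and NFE2L2 with miR-708 (-0.058 to 0.12). None of these 10 was called.

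Where the correlations of same-numbered libraries were not all above 0.1, so that they alone do not settle pairing, the replicate block called SLC7A11 with miR-28 in hTERT RPE-1 (0.89, adjusted p = 0.0142, limma, Benjamini-Hochberg adjusted). It also called HMOX1 between the siblings in MCF10A (1.16, adjusted p = 0.0371, limma, Benjamini-Hochberg adjusted), 1 member instead of 0. Beside the calls named with the results, the block changed no other call of a member. Over all genes it moved the count between the siblings in MCF10A from 228 to 643. That count was 150 without a trend and 116 to 383 with a library left out. Leaving out a library gave 1949 to 3071 genes instead of 3347 with miR-28 and 3175 to 5483 instead of 4835 with miR-708 in MCF10A, and 1509 to 4083 instead of 3084 between the siblings in hTERT RPE-1, where library size scaling gave 4650.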

Other observations

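Another list held 14 redox genes outside the lists of NRF2 targets above. They were superoxide dismutases, catalase, other peroxiredoxins, mitochondrial thioredoxin, TXNRD2, TXNIP and methionine sulfoxide reductases. Of these, 1 was higher and 3 lower with miR-28 in MCF10A, 1 higher with miR-708, 3 lower with miR-28 in hTERT RPE-1, and 2 higher and 4 lower with miR-708 (limma), beside the shares of all genes given with the members. The medians were -0.12, 0.066, -0.14 and -0.15 on the log2 scale. MSRB1, which repairs oxidised methionine, fell with miR-28 in MCF10A (-0.46) and with both siblings in hTERT RPE-1 (-0.87 and -0.81). TXN2, mitochondrial thioredoxin, fell in the same 3 comparisons (-0.32, -0.33 and -0.24). SOD2, the mitochondrial superoxide dismutase, rose with miR-708 in hTERT RPE-1 (0.27). Whether this list differs from the NRF2 targets was not tested.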
